A study of Mus musculus with 6 samples.

Results

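This account concerns 32 genes of lysosomal enzymes and lysosomal membrane proteins in regulatory T cells (Treg) with and without Mbd2. The genes were taken by name, and each was represented by the probe set with the highest mean over the 6 arrays among probe sets annotated to that gene alone. Of the 32 genes, 31 had such a probe set, out of 12393 genes on the array. Cd63 had none in the annotation used here. Gla lay under the cutoff that removed the 40% of probe sets with the lowest means (mean log2 under 5.18), so 30 of the 32 genes were tested, among 13576 probe sets. RNA came from CD4+CD25+ cells, the helper T cell subset that restrains immune responses, purified magnetically from Balb/c mice. Of the 6 single-colour arrays, 3 were of wild-type (WT) mice and 3 of mice with the MBD2-/- genotype, which lack the methyl-CpG binding protein Mbd2. The sources used here give neither the age and sex of the mice, nor their number per sample, nor the organ the cells came from. The submitters describe the samples as independent.

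Lysosomes are acidic organelles that break down proteins, glycans and lipids delivered by endocytosis, autophagy or phagocytosis. Their soluble enzymes are proteases, glycosidases and lipid hydrolases that work at low pH, and their membrane holds heavily glycosylated proteins that shield it and transporters that export the products. Phagocytes and other antigen-presenting cells carry a large lysosomal system, in which cathepsins also process antigens and the invariant chain. Resting T cells carry a smaller one, and in activated T cells lysosome-related granules serve secretion.

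Many lysosomal genes carry the E-box CACGTG near their start, the core of the element bound by Tfeb and its relatives of the MiT/TFE family, so the promoters were searched for these 6 letters. CACGTG is its own reverse complement, so one search covers both strands. RefSeq promoter windows (GRCm38.p6, 250 bases before to 50 after each start) were found for 26 of the 32 genes. In 8 of these 26 genes the window held CACGTG, against 8.09% of the 27025 genes in the table and 7.15% of its 32851 windows. The stretches before the start are shown to let the matches be compared, 5′ to 3′ on the strand of the gene, with the match in capitals. A single stretch is shown for each gene, and Ctsa, Ctsd and Gla each held 2 matches in their windows. Lamp1 (chr8:13159088-13159160, plus strand) held 4 matches within 61 bases of its start.
Lamp1: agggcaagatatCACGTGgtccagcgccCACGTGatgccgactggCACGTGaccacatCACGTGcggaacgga
Ctsa (chr2:164833749-164833772, plus strand): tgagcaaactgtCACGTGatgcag
Ctsd (chr7:142387908-142387937, minus strand): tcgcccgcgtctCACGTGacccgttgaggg
Glb1 (chr9:114401018-114401047, plus strand): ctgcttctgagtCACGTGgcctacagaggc
Gaa (chr11:119267811-119267840, plus strand): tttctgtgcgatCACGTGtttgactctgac
Lgmn (chr12:102439124-102439153, minus strand): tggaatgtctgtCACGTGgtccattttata
Ctsl (chr13:64370739-64370768, minus strand): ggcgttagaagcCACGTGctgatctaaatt
Gla (chrX:134601215-134601244, minus strand): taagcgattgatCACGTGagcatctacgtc

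Ctsl and Ctsz are members on which the results below turn, and their 250 bases before the start are shown for comparison with each other. The Ctsl stretch (chr13:64370521-64370770, minus strand) held a single match, 236 bases before the start, in capitals.
Ctsl: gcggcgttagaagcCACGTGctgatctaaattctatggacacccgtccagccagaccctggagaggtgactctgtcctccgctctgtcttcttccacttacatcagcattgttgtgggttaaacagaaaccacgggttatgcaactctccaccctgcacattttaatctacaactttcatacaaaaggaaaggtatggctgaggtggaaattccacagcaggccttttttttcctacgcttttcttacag
The Ctsz stretch (chr2:174439040-174439289, minus strand) held 0 matches.
Ctsz: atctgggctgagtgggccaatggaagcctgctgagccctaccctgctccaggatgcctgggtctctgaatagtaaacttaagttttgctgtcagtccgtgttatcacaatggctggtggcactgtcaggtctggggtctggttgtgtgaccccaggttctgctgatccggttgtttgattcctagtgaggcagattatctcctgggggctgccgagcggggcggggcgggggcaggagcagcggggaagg

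The deposited values are log2 levels per probe set, and array medians lay between 5.56 and 5.78. Wild-type replicate 3 stood apart. Its correlation with the other arrays, across probe sets, was 0.749 to 0.767, against 0.956 to 0.997 among the other 5, and its SD was 1.37 against 1.79 to 1.84. The fits were therefore run with all 6 arrays and with the 5 arrays left without that replicate. The targeted gene Mbd2 read 8.80, 8.66 and 6.93 on the wild-type arrays 1 to 3 and 5.93, 5.71 and 6.14 on the knockout arrays 1 to 3. The sources used here do not say if that probe set falls within the deletion. The Y-linked gene Eif2s3y was at 7.62 and 7.88 in knockout replicates 2 and 3 and between 4.05 and 4.17 in the other 4 arrays, so the sexes may differ between arrays and were not a term in the fits. The 7 T cell markers with a probe set were above the cutoff on every array. Their summed linear level was 11397, 11215 and 5658 on wild-type arrays 1 to 3 and 8709, 5373 and 8418 on knockout arrays 1 to 3. The sum over 15 granulocyte markers was 785, 1722 and 949 on the wild-type arrays. On the knockout arrays it was 25587, 36413 and 24983, above the T cell sums, so T cell markers alone do not describe those samples.

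In RNA of bulk samples, mean levels of most of these lysosomal genes were higher on the knockout arrays. The median log2 difference of the 30 tested genes shrank from 0.85 to 0.34 once wild-type replicate 3 was dropped. Dropping knockout replicate 2 too brought this median to 0.19, against -0.03 over all tested probe sets. The cysteine cathepsins Ctsl, Ctsh and Ctsz were higher on every knockout array than on every wild-type array. They reached an adjusted p under 0.05 in limma when wild-type replicate 3 was left out. With 6 arrays, 29 of the 30 tested genes were higher in knockout and 1 was lower. Of all tested probe sets, 63.2% were higher and 36.8% lower, and their median log2 difference was 0.15 against 0.85 for the lysosomal genes. The median over all probe sets depended on level, at -0.03 without the filter and 0.28 with the dimmest 60% left out. The lysosomal genes were bright, with a median level of 7.54 on wild-type replicate 1, where array medians were 5.56 to 5.78. A background matched for level was not computed. None of the 30 passed an adjusted p of 0.05 in limma. Over all probe sets 0.103% were called higher in that fit and 0.0% lower. At an unadjusted p under 0.05, 6 of the 30 were higher and 0 lower, where 3.48% of all probe sets were higher and 0.597% lower. With 5 arrays, 25 were higher and 5 lower, where 39.3% of all probe sets were higher and 60.7% lower, with a median of 0.34 against -0.06 over all tested probe sets. Then 3 of the 30 were called, all higher, against 0.67% of all probe sets called higher and 0.729% called lower. That count was 0 without wild-type replicate 1, wild-type replicate 2 or knockout replicate 3 and 1 without knockout replicate 1. Without knockout replicate 2 it was 13, of which 10 were higher, against 8.37% of all probe sets, and 3 lower, against 10.3%. RNA of a bulk sample cannot tell more cells of a type from more RNA per cell.

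The arrays of a group did not agree equally well. Wild-type replicates 1 and 2 differed by a median of 0.07 over the 30 genes, and knockout replicates 1 and 3 by 0.08. Wild-type replicate 3 was the lowest of the 6 arrays for 27 of the 30 genes, where it was the lowest for 63.8% of all tested probe sets, and lay a median of 1.27 below the mean of the other wild-type arrays. Knockout replicate 2 was the highest of the 6 arrays for 23 of the 30 genes, against 16.0% of all tested probe sets, and the highest of the 3 knockout arrays for 26, against 30.5%. Its median excess over knockout replicates 1 and 3 was 0.41 for these genes and -0.10 over all tested probe sets. The 6-array differences thus contain the low values of wild-type replicate 3, and both fits contain the high values of knockout replicate 2.

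**Figure D1:**
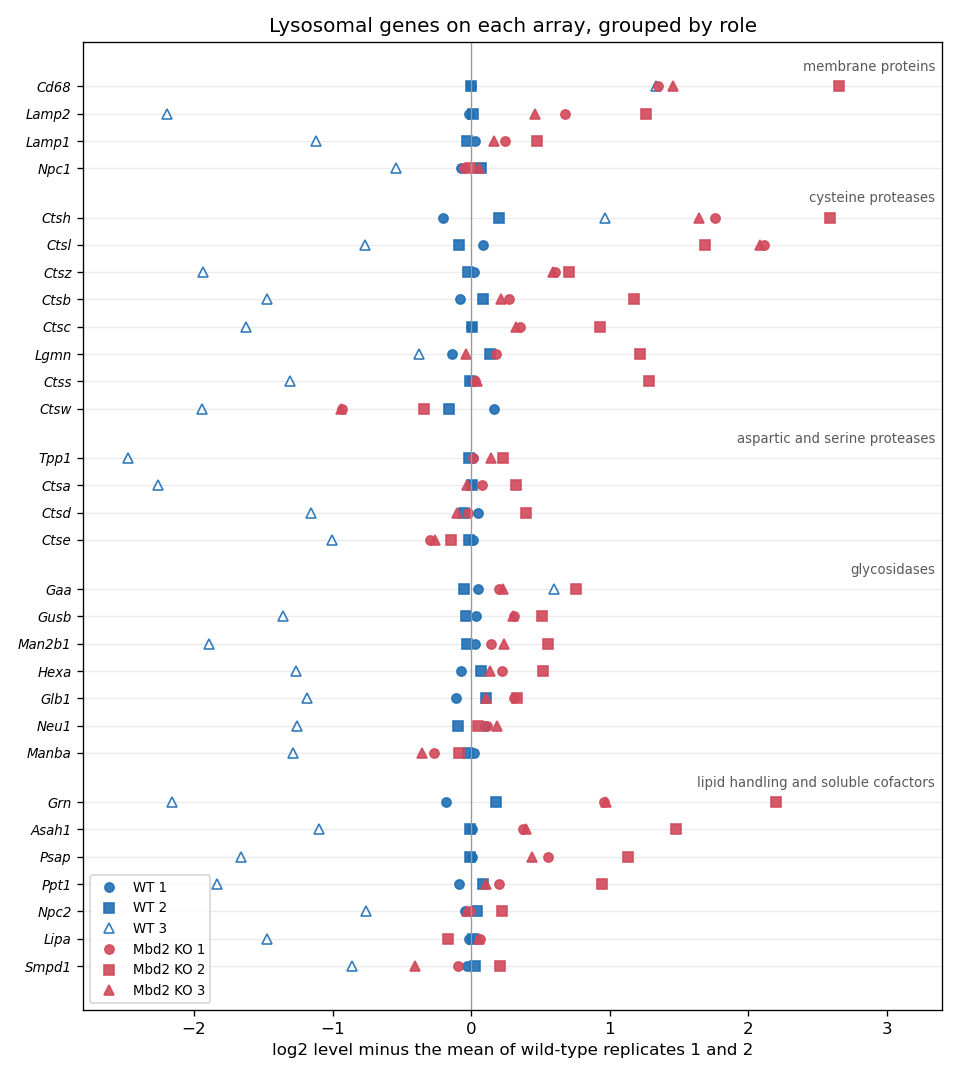
The x axis is the log2 level on each array minus the mean of wild-type replicates 1 and 2, and each row is a tested lysosomal gene, grouped by role and ordered by the 5-array difference. Blue marks are wild-type arrays (open triangle, replicate 3) and red marks knockout arrays; wild-type replicate 3 is the lowest array for 27 of 30 genes and knockout replicate 2 the highest for 23.

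Among the cysteine proteases, 6 of 8 genes were higher on all 3 knockout arrays than on all 3 wild-type arrays. Of all probe sets tested, 10.4% had that pattern, and over all roles 16 of the 30 genes had it. The reverse pattern was seen in 0 of the 30, against 5.72% of all probe sets. Ctsl encodes cathepsin L, an endopeptidase that in thymic epithelium processes the invariant chain. Its level was 7.06, 6.89 and 6.21 on wild-type arrays 1 to 3 and 9.09, 8.66 and 9.06 on knockout arrays 1 to 3. The groups lay far apart, and knockout replicate 2 was the lowest knockout array, unlike for most of these genes. The log2 difference was 2.22 (SE 0.30, limma adjusted p = 0.126) with 6 arrays and 1.96 (SE 0.16, adjusted p = 0.0108) with 5, a 3.9-fold rise in the latter fit. It kept its size, 1.88 to 2.10, when any further array was left out, and passed the threshold without knockout replicate 1 or 2 but not without knockout replicate 3 (adjusted p = 0.0568) or with wild-type replicate 1 or 2 left out (0.11 and 0.134).

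Ctsh encodes cathepsin H, an aminopeptidase. Its level was 5.43, 5.83 and 6.60 on the wild-type arrays and 7.39, 8.21 and 7.27 on the knockout arrays, in the order of their replicate numbers, as in all such series here. Wild-type replicate 3 was the highest wild-type array, and knockout replicate 2 the highest of all. Ctsh rose 4.0-fold with 5 arrays (log2 difference 2.0, SE 0.30, adjusted p = 0.0479), and the difference was 1.68 with 6 (adjusted p = 0.561). Without the filter its adjusted p was 0.0589, and after a further quantile normalization 0.0522. Ctsz encodes cathepsin Z, a carboxypeptidase. Its level was 8.68, 8.63 and 6.71 in wild type and 9.26, 9.36 and 9.25 in knockout. The knockout arrays lay close together, and all were above the wild-type arrays. Ctsz rose 1.55-fold with 5 arrays (log2 difference 0.64, SE 0.09, adjusted p = 0.0438), and was at 1.28 (adjusted p = 0.83) with 6. Its other probe sets were at 0.99 and 0.94 with 5 arrays, with adjusted p of 0.0617 and 0.0916. Both calls were lost when wild-type replicate 1 or 2 or knockout replicate 1 or 3 was also left out, with adjusted p from 0.105 to 0.394 for Ctsh and from 0.12 to 0.418 for Ctsz, while the differences stayed at 1.80 to 2.20 and at 0.61 to 0.66.

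**Figure D2:**
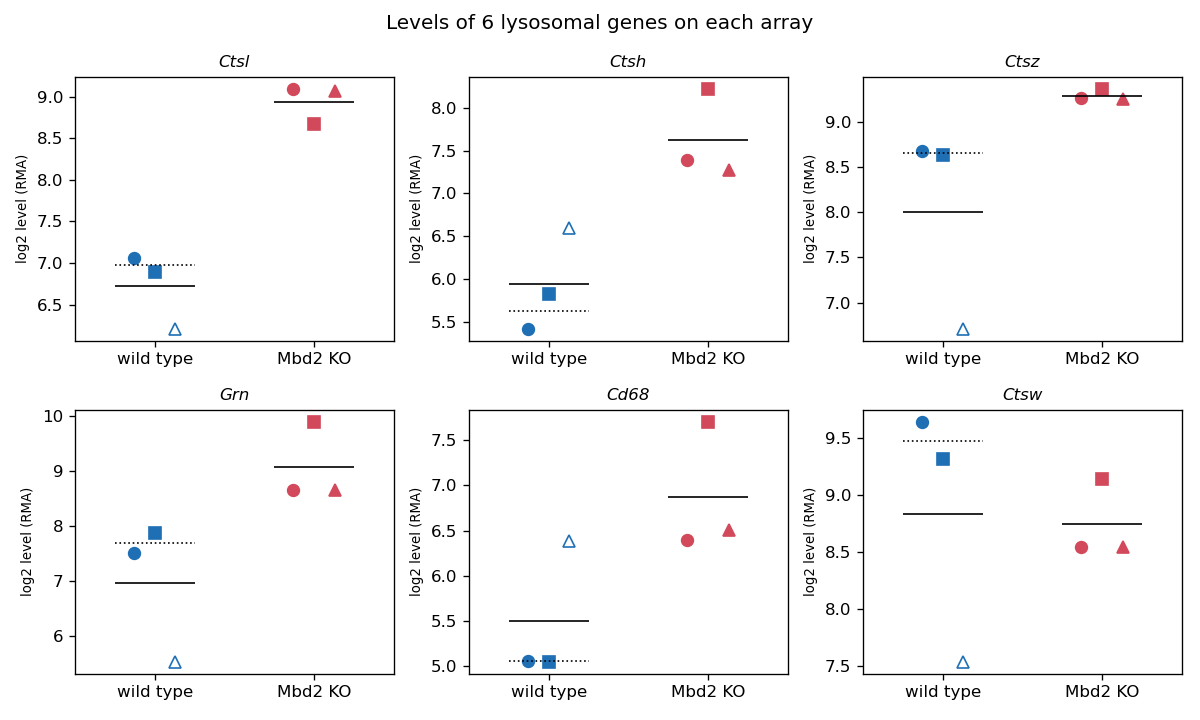
Each panel shows the log2 level of a gene on the 6 arrays, with replicates 1, 2 and 3 as circle, square and triangle (open triangle, wild-type replicate 3). Solid lines are the means of 3 arrays and dotted lines the mean of wild-type replicates 1 and 2; Ctsl, Ctsh, Ctsz, Grn and Cd68 are separated between groups and Ctsw is not.

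The other cysteine proteases were not called in either fit. Ctsb, cathepsin B, was 9.17, 9.34 and 7.79 in wild type and 9.53, 10.43 and 9.48 in knockout, a log2 difference of 1.05 with 6 arrays and 0.56 with 5 (adjusted p = 0.334), of which 0.25 was left without knockout replicate 2. Ctsc, the dipeptidyl peptidase that activates granule serine proteases, was 8.74, 8.75 and 7.12 in wild type and 9.10, 9.67 and 9.07 in knockout, a difference of 1.08 and 0.54 (adjusted p = 0.203 with 5 arrays), and of 0.34 without knockout replicate 2. Ctss, cathepsin S, processes the invariant chain in antigen-presenting cells. It was 10.85, 10.83 and 9.53 in wild type and 10.86, 12.12 and 10.88 in knockout. The Ctss difference of 0.45 with 5 arrays (adjusted p = 0.53) lay almost wholly in knockout replicate 2, and without that array it was 0.04. Lgmn, the asparaginyl endopeptidase legumain, was between 5.45 and 6.70 in knockout and between 5.10 and 5.62 in wild type, so the groups overlapped. The Lgmn difference was 0.58 with 6 arrays, 0.45 with 5 and 0.07 when knockout replicate 2 was left out as well. Ctsw, a cathepsin of cytotoxic lymphocytes, ran the other way, at 9.64, 9.32 and 7.54 in wild type and 8.54, 9.14 and 8.54 in knockout. All 3 knockout arrays lay below wild-type replicates 1 and 2 and above replicate 3. The Ctsw difference was -0.09 with 6 arrays and -0.74 (SE 0.22, adjusted p = 0.145) with 5.

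The membrane proteins include the main glycoproteins of the lysosomal limiting membrane. Lamp2 was 7.32, 7.35 and 5.14 in wild type and 8.01, 8.60 and 7.80 in knockout. The groups did not overlap, and the difference was 1.53 (adjusted p = 0.83) with 6 arrays and 0.80 (SE 0.24, adjusted p = 0.143) with 5. All 4 of its probe sets were higher in knockout, by 0.73 to 1.04 with 5 arrays. Lamp1 was 9.26, 9.20 and 8.11 in wild type and 9.48, 9.71 and 9.40 in knockout, also without overlap. Its difference was smaller, at 0.67 with 6 arrays and 0.30 (SE 0.12, adjusted p = 0.235) with 5. Cd68, a lysosomal glycoprotein best known as a macrophage marker, was 5.05, 5.05 and 6.38 in wild type and 6.40, 7.70 and 6.50 in knockout. Wild-type replicates 1 and 2 lay under the cutoff of 5.18, and replicate 3 came just below knockout replicate 1. Against that cutoff the Cd68 level was at least 3.21-fold higher in knockout with 5 arrays (log2 difference 1.82, SE 0.39, adjusted p = 0.0849). Npc1, the membrane protein that exports cholesterol, was at 0.18 with 6 arrays and 0.00 apart with 5 (95% confidence interval -0.24 to 0.24 in the latter).

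Among the aspartic and serine proteases, 0 of 4 were higher on every knockout array than on every wild-type array, where 10.4% of all probe sets were. Ctse, cathepsin E, an aspartic protease, was 10.86, 10.82 and 9.83 in wild type and 10.54, 10.70 and 10.58 in knockout. The knockout arrays lay between wild-type replicate 3 and the other wild-type arrays, with a difference of 0.10 with 6 arrays and -0.23 (adjusted p = 0.233) with 5. A dimmer Ctse probe set gave 0.33 with 5 arrays, the opposite sign. Tpp1, tripeptidyl peptidase 1, was 8.23, 8.20 and 5.73 in wild type and 8.23, 8.44 and 8.36 in knockout, overlapping at its lowest knockout array. Its difference was 0.96 with 6 arrays and 0.13 with 5, or 0.08 without knockout replicate 2. Ctsa and Ctsd, which encode cathepsin A (also the protective protein of neuraminidase) and the major aspartic cathepsin D, differed by 0.88 and 0.48 with 6 arrays and by 0.12 and 0.09 with 5. Their 5-array intervals were -0.19 to 0.44 and -0.32 to 0.51, and without knockout replicate 2 they were at 0.02 and -0.06.

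Of the 7 tested glycosidases, 3 were higher on all knockout arrays than on all wild-type arrays, against 10.4% of all probe sets. Gusb, beta-glucuronidase, was 7.12, 7.05 and 5.73 in wild type and 7.39, 7.60 and 7.39 in knockout, a difference of 0.83 with 6 arrays and 0.37 (SE 0.11, adjusted p = 0.139) with 5. Hexa, the alpha subunit of beta-hexosaminidase, was 8.36, 8.50 and 7.16 in wild type and 8.65, 8.94 and 8.56 in knockout. Man2b1, the lysosomal alpha-mannosidase, was 9.42, 9.36 and 7.50 in wild type and 9.54, 9.94 and 9.63 in knockout. Hexa and Man2b1 were not called, at 0.71 and 0.94 with 6 arrays, 0.29 and 0.31 with 5, and 0.18 and 0.19 without knockout replicate 2. A dimmer Man2b1 probe set was at -0.14 with 5 arrays. Gaa, the acid alpha-glucosidase that degrades glycogen, was 6.67, 6.56 and 7.21 in wild type and 6.81, 7.37 and 6.85 in knockout. The Gaa difference was 0.20 with 6 arrays, 0.40 with 5 and 0.22 without knockout replicate 2 as well. Gaa, Ctsh and Cd68 were the tested genes for which wild-type replicate 3 was above the other wild-type arrays. Manba, beta-mannosidase, was 6.41, 6.37 and 5.11 in wild type and 6.12, 6.30 and 6.04 in knockout. Manba was lower in knockout by 0.24 with 5 arrays (adjusted p = 0.284), with no overlap, and higher by 0.19 with 6. Ctsw and Manba are named for this pattern, chosen after their values were seen. Ctse shared it, so 3 of the 30 genes were lower on all knockout arrays than on both remaining wild-type arrays, against 31.8% of all tested probe sets, while 17 were higher, against 15.6%. Glb1 and Neu1, beta-galactosidase and neuraminidase 1, were at 0.64 and 0.53 with 6 arrays and at 0.25 and 0.12 with 5, and overlapped. The untested Gla, alpha-galactosidase A, was between 4.43 and 4.74 on 5 arrays and 5.85 in wild-type replicate 3. Its difference, left out of the counts of direction, was -0.34 with 6 arrays and 0.11 with 5.

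Among the genes of lipid breakdown and their soluble cofactors, Grn differed most. Grn encodes progranulin, a secreted glycoprotein that is processed in lysosomes. It was 7.51, 7.87 and 5.53 in wild type and 8.65, 9.89 and 8.66 in knockout. The groups were separate, with replicate 2 the highest knockout array by more than 1 log2 unit. The difference was 2.10 (SE 0.69, adjusted p = 0.83) with 6 arrays and 1.38 (SE 0.40, adjusted p = 0.139) with 5, and the other Grn probe sets gave 1.41 and 1.27 with 5. Psap encodes prosaposin, the precursor of the saposins that assist sphingolipid hydrolases. Psap was 9.50, 9.49 and 7.84 in wild type and 10.06, 10.63 and 9.93 in knockout, a difference of 1.26 and 0.71 (adjusted p = 0.149 with 5 arrays). Asah1, acid ceramidase, was 6.74, 6.73 and 5.64 in wild type and 7.11, 8.22 and 7.13 in knockout. Its difference with 5 arrays, 0.75 (adjusted p = 0.273), came down to 0.39 without knockout replicate 2. Ppt1, palmitoyl-protein thioesterase 1, was 7.54, 7.72 and 5.80 in wild type and 7.83, 8.58 and 7.74 in knockout, where the lowest knockout array was just above wild-type replicate 2. Its difference was 1.03 with 6 arrays, 0.42 with 5 and 0.15 without knockout replicate 2 as well. Npc2, Lipa and Smpd1, which encode a cholesterol carrier, acid lipase and acid sphingomyelinase, were at 0.32, 0.48 and 0.19 with 6 arrays and at 0.06, -0.01 and -0.10 with 5.

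**Figure D3:**
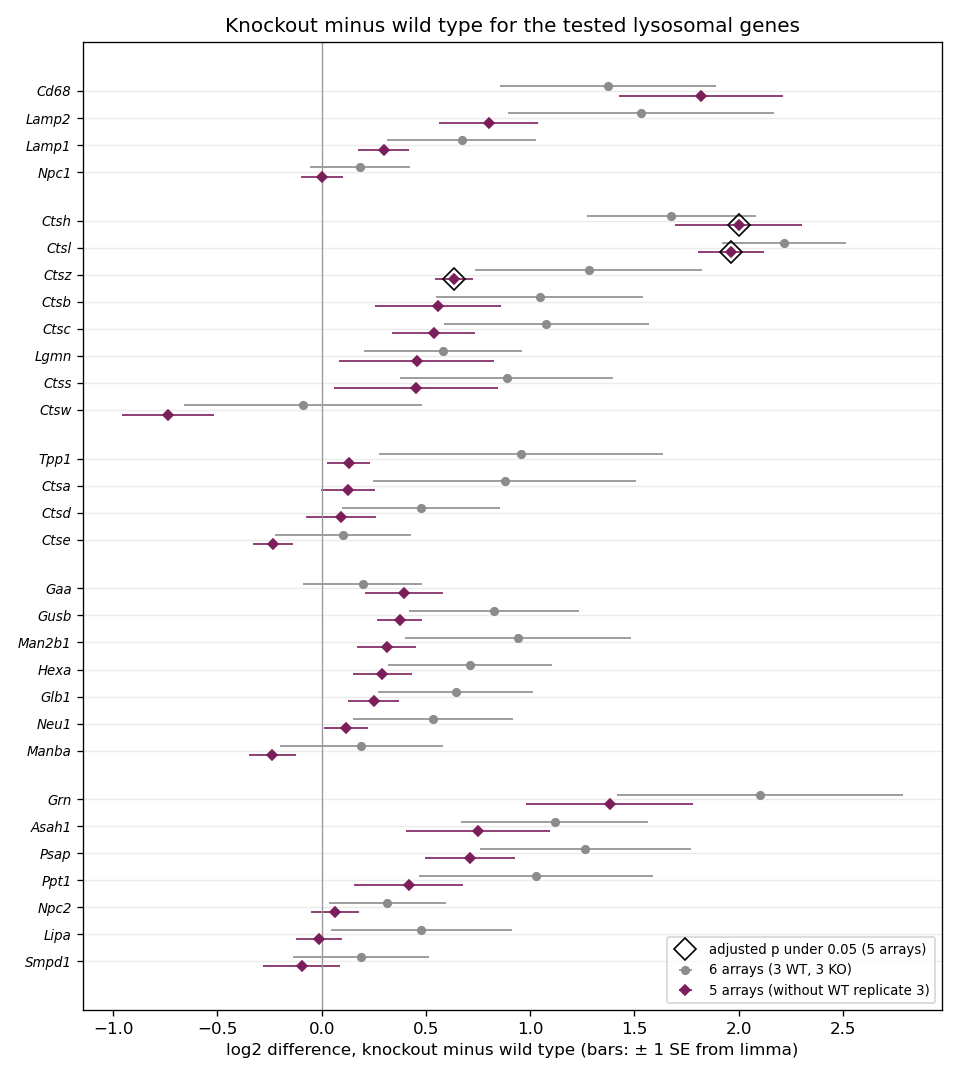
Points give the log2 difference, knockout minus wild type, of each tested lysosomal gene from limma, with bars of 1 SE, for 6 arrays (grey circles) and for 5 arrays without wild-type replicate 3 (purple diamonds). Outlined diamonds mark Ctsh, Ctsl and Ctsz, the genes called with 5 arrays; bars are shorter with 5 arrays for most genes.

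The genes were thus unequal in size of difference. With 5 arrays, 8 of the 30 lay within 0.2 of 0, namely Ctsa, Ctsd, Neu1, Npc1, Npc2, Lipa, Smpd1 and Tpp1, with 95% confidence intervals that together spanned -0.55 to 0.51. For 5 genes (Ctss, Cd68, Asah1, Grn and Lgmn) knockout replicate 2 exceeded the mean of the other knockout arrays by more than 1 log2 unit, and for Ctsl it lay 0.41 below that mean. When knockout replicate 2 was left out as well, so that 2 arrays remained in each group, 10 of the 30 genes were called higher, against 8.37% of all tested probe sets. These were Ctsl, Cd68, Ctsh, Ctsz, Grn, Psap, Lamp2, Asah1, Ctsc and Gusb. In the same fit 3 were called lower, Ctsw, Manba and Ctse, against 10.3% of all tested probe sets. The log2 differences were then 2.10 for Ctsl, 1.71 for Ctsh, 1.40 for Cd68, 0.97 for Grn and -0.94 for Ctsw, and the median over the 30 genes was 0.19 against -0.03 over all tested probe sets.

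The 7 tested genes with CACGTG in their promoter window had a median difference of 0.30 with 5 arrays (range 0.09 to 1.96), and the 17 tested genes with a window but no match one of 0.37 (range -0.24 to 1.82). The ranges overlapped. Of the genes called with 5 arrays, Ctsl had a window with a match and Ctsz a window without one, and Ctsh was not in the promoter table.

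Of other genes of the lysosomal pathway, 76 were listed and 54 tested, and 0 of these 54 were called by limma in either fit. Without wild-type replicate 3 and knockout replicate 2, 6 were called higher and 5 lower, against 8.37% and 10.3% of all tested probe sets. With 6 arrays, 43 were higher and 11 lower in knockout, where 63.2% of all tested probe sets were higher and 36.8% lower. Their median log2 difference was 0.40 against 0.15 over all tested probe sets. With 5 arrays, 29 were higher and 25 lower, where 39.3% of all tested probe sets were higher and 60.7% lower. Their median was then 0.04 against -0.06. At an unadjusted p under 0.05 in limma, 3 were higher and 0 lower with 6 arrays, and 6 higher and 4 lower with 5. At that level 3.48% of all tested probe sets were higher and 0.597% lower with 6 arrays. With 5 arrays the shares were 6.95% and 14.6%. Other lysosomal hydrolases had a median log2 difference of 0.31 with 6 arrays, with 10 of 15 genes higher, and of 0.09 with 5, with 9 higher. Other lysosomal membrane proteins and transporters were at 0.24 with 6 arrays, with 7 of 11 higher, and at -0.05 with 5, with 4 higher. Subunits of the V-ATPase, the proton pump that acidifies the lysosome, were at 0.12 with 5 arrays, with 12 of 16 higher. With 6 arrays all 16 were higher (median 0.55), and their summed level was 2025 in wild-type replicate 3 against 5648 to 6511 on the other arrays. Genes of lysosomal sorting and of the MiT/TFE regulators were at 0.24 with 6 arrays, with 6 of 8 higher, and at -0.03 with 5, with 2 higher. Cathepsin inhibitors were at 0.59 with 4 of 4 higher, and at 0.01 with 2 of 4 higher, in the same order.

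Most tested markers of other cell types were higher in knockout beside the lysosomal genes. Of the 13 monocyte and macrophage markers on the array, 10 were tested and 10 of these were higher in knockout in both fits. Their median log2 difference was 1.94 with 6 arrays and 2.34 with 5. Of all tested probe sets, 63.2% were higher with 6 arrays and 39.3% with 5. Csf1r and Lyz2 passed the threshold with 5 arrays, and Lyz2 also with 6. The summed linear level of the 13 markers was 442 to 765 on the wild-type arrays and 2932 to 6932 on the knockout arrays, with the highest sum in knockout replicate 2. In wild-type replicates 1 and 2, 9 of the 13 were under the cutoff, and Vsig4 was under it on all 6 arrays. The filter used the mean over both groups, so a marker could pass it through high knockout levels alone. The count of 10 therefore does not test direction. The untested Itgam, Fcgr1 and Vsig4 were at 0.96, 0.02 and -0.13 with 6 arrays and at 1.07, 0.52 and 0.08 with 5. All 15 granulocyte markers with a probe set were tested and higher in knockout, and their sums were 785 to 1722 in wild type and 24983 to 36413 in knockout, again highest in replicate 2. Of 5 dendritic cell and 9 B cell markers on the array, 3 and 6 were tested. Their medians were 0.62 and 1.74 with 6 arrays and 0.89 and 1.26 with 5. The untested Xcr1, Pax5 and Fcer2a were lower in knockout with 6 arrays (-0.36, -0.40 and -0.10), and Zbtb46 and Cr2 higher (0.02 and 0.20). With 5 arrays only Fcer2a of these was lower (-0.08). Plasma cell and CD8 T or NK cell markers had medians of 1.49 and 0.87 with 6 arrays and of 1.09 and 0.51 with 5, which came to 0.70 and 0.17 without knockout replicate 2. Their part in the differences of the lysosomal genes was not tested.

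Most T cell markers and all tested Treg markers were lower in knockout. With 6 arrays, 6 of 7 T cell markers were lower (median -0.27), with 0 called by limma and 0 at an unadjusted p under 0.05. With 5 arrays 7 of 7 were lower (median -0.60), with 0 called and 4 at that level. Of all tested probe sets, 36.8% were lower with 6 arrays and 60.7% with 5, with medians of 0.15 and -0.06. At an unadjusted p under 0.05 in limma, 0.597% and 14.6% of them were lower. The 7 Treg markers were all lower in both fits, with a median of -0.58 and 0 called with 6 arrays (1 at an unadjusted p under 0.05) and of -1.19 with 5, or -0.74 without knockout replicate 2. With 5 arrays Itgae and Nrp1 were called lower (log2 differences of -0.74 and -1.39), against 0.729% of all tested probe sets. With 6 arrays Itgae and Nrp1 were at -0.07 and -0.76 and not called. The summed level of the Treg markers was 4445, 4585 and 1631 on wild-type arrays 1 to 3 and 2415, 1536 and 2831 on knockout arrays 1 to 3. The summed level of the 31 lysosomal genes was 13722, 13746 and 6017 in wild type and 15136, 21945 and 14898 in knockout. Knockout replicate 2 had the highest lysosomal sum and the lowest Treg and T cell sums of the 6 arrays. It also had the highest sums of macrophage, granulocyte, dendritic cell, B cell, plasma cell and CD8 T or NK cell markers. The plasma cell sum was 21010 in knockout replicate 2, against 10499 and 10569 in knockout replicates 1 and 3. The sums do not describe every gene of a list. Knockout replicate 2 was the lowest knockout array for 3 of the 30 tested lysosomal genes, Ctsl, Neu1 and Lipa. It was also the lowest knockout array for the granulocyte markers Elane, Mpo and Prtn3.

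**Figure D4:**
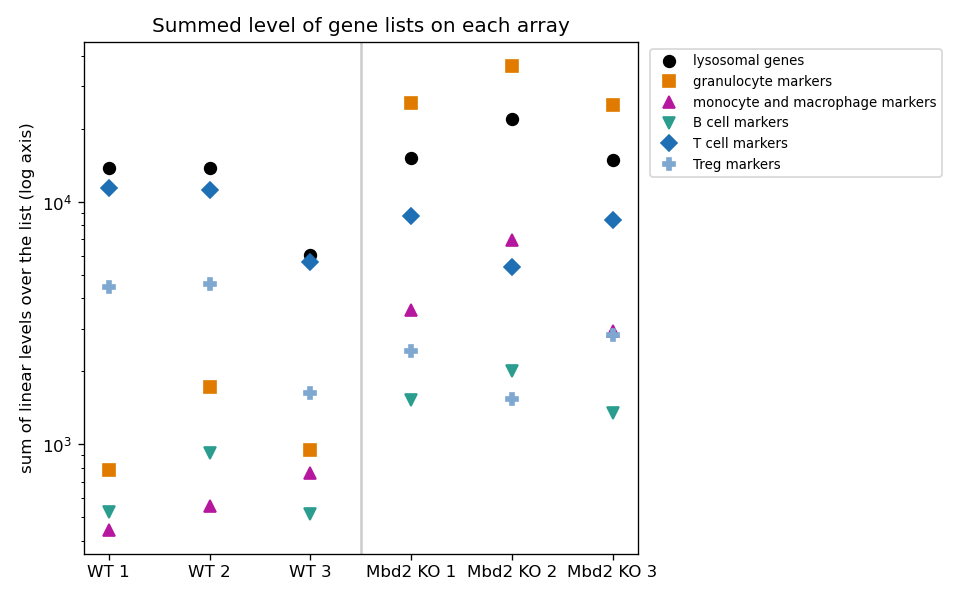
The y axis, on a log scale, is the sum of linear levels (2 to the power of the log2 value) over the genes of each list, and the x axis the 6 arrays. Granulocyte markers sum to 785 to 1722 in wild type and to 24983 to 36413 in knockout. Knockout replicate 2 has the highest sums of lysosomal genes and of granulocyte, macrophage and B cell markers, and the lowest of T cell and Treg markers.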

How the data were processed

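The deposited values are log2 levels per probe set, which the authors computed with RMA per the submitters' processing notes (background correction, quantile normalization and probe summary). The sources used here name neither its version nor the arrays processed as a set, and hold no detection calls. The number of arrays limits the precision. Of 22690 probe sets, 64 controls were left out. Symbols came from the platform table, updated by gene ID through RefSeq (GRCm38.p6), and 20380 of 22626 probe sets had 1 symbol.

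A filter removed the dimmest 40% of probe sets by mean level. The other 13576 entered a limma 3.58.1 fit under R 4.3.3 (group as the only term, Benjamini-Hochberg adjustment over all of them, threshold 0.05), with 6 arrays and without wild-type replicate 3. A fold whose lower mean was under the cutoff is a bound, with arrays raised to it. Values per array are given for genes that passed the threshold, genes without overlap between groups, and the 2 genes of each role with the largest 5-array difference. The genes and lists were chosen with earlier results of these data known. Alternatives covered the filter, variance model, normalization, array weights, probe set choice, the replicate number as a block and each array left out. Figures were drawn with matplotlib 3.10.9.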

Additional observations from a re-analysis of the deposited data

How the results depend on the processing

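Which array is used mattered most, and 2 or 3 arrays a group limit what can be called. With array quality weights, 2324 probe sets instead of 14 were called with 6 arrays, and 3783 instead of 190 with 5. Then 9 and 14 lysosomal genes were called instead of 0 and 3, and their median log2 difference was 0.19 and 0.21 instead of 0.85 and 0.34. These weights gave wild-type replicate 3 a weight of 0.0288 and, with 5 arrays, knockout replicate 2 one of 0.13. Without the filter, 8 probe sets were called with 6 arrays. With arrays left out singly, calls over all probe sets ran from 0 to 190 (6 arrays) and from 18 to 2537 (5 arrays), and calls among the lysosomal genes from 0 to 3 and from 0 to 13. The lowest counts of the 5-array fit, 0 lysosomal genes, came without wild-type replicate 1, without wild-type replicate 2 and without knockout replicate 3, and the highest without knockout replicate 2. Where a single wild-type array was left, it is assumed to vary like the knockout arrays. The median of the lysosomal genes ran from 0.34 to 1.09 and from 0.19 to 0.40 in these fits. The causes of these changes were not tested.

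The replicate numbers do not pair the arrays by design. The deviations of same-numbered arrays correlated at 0.15, -0.09 and -0.14. With the replicate number as a block, 10 probe sets and 0 lysosomal genes were called with 6 arrays, and 562 and 5 with 5. The 5 were Ctsh, Ctsl, Grn, Cd68 and Lamp2, and Ctsz was no longer called (adjusted p = 0.0671). Ctsz was also lost with the mean of its probe sets (adjusted p = 0.0566).

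Some genes with small differences changed sign. With 6 arrays Ctse turned to -0.27 and Gaa to -0.065 after a further quantile normalization, and Ctse to -0.26 and Manba to -0.26 with array weights. Ctse turned to -0.062 with the mean of its probe sets, and to 0.047 with 5 arrays. With arrays left out singly, Ctse ran from -0.23 to 0.28 and Manba from -0.24 to 0.41, negative without wild-type replicate 3 only. Ctsw, at -0.09 with 6 arrays, ran from -0.74 to 0.32 with arrays left out singly.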
